A study of Mus musculus with 8 samples.

Results

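A set of 10 genes characteristic of T follicular helper cells was followed in the spleens of 8 mice of 3 genotypes. They are Tnfsf8, Cd40lg and Il21 (ligands and a cytokine), Pdcd1 and Icos (receptors), Sh2d1a (a signalling adaptor) and Maf, Tox, Tox2 and Ascl2 (transcription factors). Each was read from the array's only probe set annotated to that symbol alone, and all 10 were found among 19938 genes with such a probe set. Sle1.3/E2-2het mice (n = 3) carry the Sle1.3 lupus background and are haplodeficient for E2-2, the transcription factor encoded by Tcf4. Sle1.3 mice (n = 3) carry the same background without that deficiency, and WT mice (n = 2) carry neither. All are labelled C57/B6, and the labels give no age and no account of how the E2-2 allele was made. Each spleen was digested with collagenase and DNase and hybridised to 1 Affymetrix Mouse Gene 1.0 ST array.

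T follicular helper cells are CD4 T cells that enter B cell follicles and sustain germinal centres, the sites where B cells mutate and select their antibodies. They do so through CD40 ligand, interleukin-21 and ICOS, and they need the adaptor SAP, the product of Sh2d1a, for stable contact with B cells. In lupus-prone mice such cells accumulate in the spleen and help autoreactive B cells. E2-2 is required by plasmacytoid dendritic cells and belongs to the E proteins, which bind the DNA motif called an E-box.

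Values are log2 intensities, and a difference of 1 is a doubling. One probe set's level is not comparable with another's, so genes are compared only between mice. The arrays of replicate 3 of Sle1.3/E2-2het and of Sle1.3 form a second array set, told apart by a lowest linear intensity of 11.2 and 10.9, where the 6 arrays of the first set have 4.57 to 5.11. The first set has 2 mice of each genotype. The array set was a term in every main fit, and differences within each set are given below. Xist, transcribed from the inactive X chromosome of females, was 3.79, 4.29 and 11.82 in Sle1.3/E2-2het mice, 10.77, 10.68 and 11.90 in Sle1.3 mice, and 4.11 and 3.75 in WT mice. Sle1.3 replicate 3 is labelled male and read as female by this gene. In the first set Sle1.3/E2-2het and WT mice were thus male and Sle1.3 mice female, so sex and genotype cannot be told apart there for any comparison with Sle1.3. Tcf4 was 8.18, 8.13 and 9.25 in Sle1.3/E2-2het mice, 8.67, 8.63 and 9.06 in Sle1.3 mice, and 9.02 and 8.80 in WT mice. The fitted Tcf4 difference was -0.27 against Sle1.3 (SE 0.15, limma adjusted p = 0.575) and -0.64 against WT (SE 0.17, adjusted p = 0.0163). The labels do not say which part of the gene the allele removes, so the probe set may not check it. All 11 measured T cell markers lay above the filter on low values.

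Spleens of Sle1.3/E2-2het mice had less transcript of several of these genes than spleens of Sle1.3 mice. The ligand gene Tnfsf8, the receptor gene Pdcd1 and the factor genes Tox and Tox2 passed the test, 4 of the 8 members tested, and none rose. Over all 14953 genes tested, 0.461% passed as lower and 0.154% as higher (0.615% in all). The median difference of the 8 members was -0.67, against 0.00 over all genes tested. Il21 and Ascl2 lay below the filter on low values (mean log2 of 5.01) and were tested in a fit with no filter, in which Il21 was lower. The bulk spleen measurement cannot tell fewer T follicular helper cells from less RNA per cell.

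**Figure D1:**
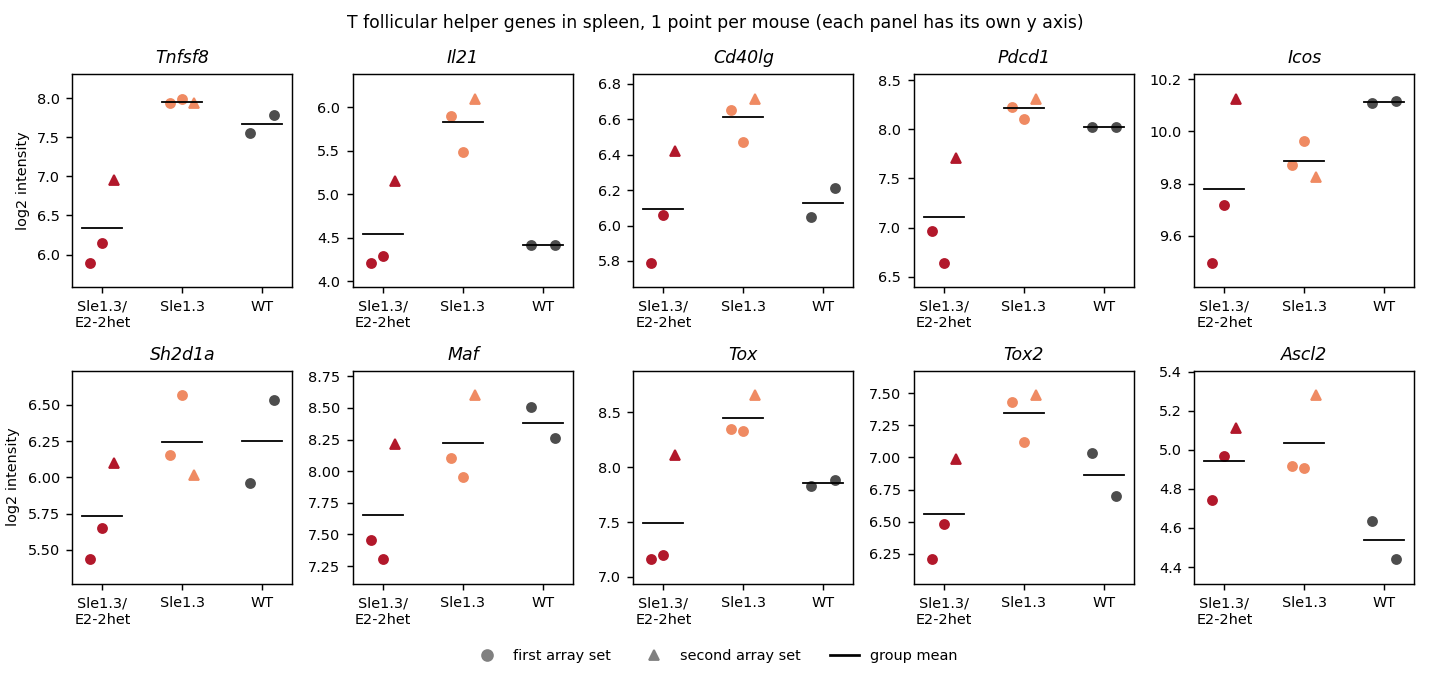
Log2 intensity of each of the 10 genes (y axis, a scale of its own per panel) in Sle1.3/E2-2het, Sle1.3 and WT mice (x axis), with 1 point per mouse, circles for the first array set, triangles for the second and a bar for the group mean. Tnfsf8 lay between 5.90 and 6.96 in Sle1.3/E2-2het mice, below the lowest Sle1.3 mouse (7.94) and the lowest WT mouse (7.55).

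Tnfsf8 encodes CD30 ligand, a TNF family protein of activated T cells and other leukocytes. It measured 5.90, 6.15 and 6.96 in Sle1.3/E2-2het mice, while Sle1.3 mice had 7.94, 7.995 and 7.94. The groups did not overlap, and the Sle1.3 mice lay close together while the second-set Sle1.3/E2-2het mouse stood above its 2 group mates. The difference was -1.62 (SE 0.18, limma adjusted p = 0.00279), a 3.08-fold lower level. It passed whichever mouse was left out, in the first set alone (-1.94, adjusted p = 0.00034) and after scaling to T cell genes (-1.41). A fit with genotype alone gave limma adjusted p = 0.0982, and labelled sex in place of the array set did not call it either. With the array set and the sex read from Xist as terms, Tnfsf8 differed by -0.98, between 1 pair of second-set mice.

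Il21 encodes interleukin-21, the cytokine by which T follicular helper cells drive germinal centre B cells and plasma cells. It measured 4.21, 4.28 and 5.15 in Sle1.3/E2-2het mice, set against 5.90, 5.48 and 6.10 in Sle1.3 mice and 4.41 and 4.42 in WT mice. Every Sle1.3 mouse lay above every mouse of the other genotypes, while the first-set Sle1.3/E2-2het mice lay just under WT. With no filter Sle1.3/E2-2het differed from Sle1.3 by -1.28 (SE 0.14, limma adjusted p = 0.00470), where 0.276% of 19938 genes passed as lower. By the sex read from Xist, every female mouse (5.15 to 6.10) lay above every male mouse (4.21 to 4.42), and the part of sex was not tested. Being below the filter, Il21 was fitted only with the array set as a term. It was not fitted with sex as a term, in the first set alone or with a mouse left out. These levels are low on the array, and no detection call came with the table.

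Cd40lg encodes CD40 ligand, the signal that licenses B cells to proliferate and switch antibody class. It measured 5.79, 6.06 and 6.42 in Sle1.3/E2-2het mice, while Sle1.3 mice had 6.65, 6.47 and 6.72. The groups did not overlap, though their nearest mice lay close. The difference was -0.52 (SE 0.13, limma adjusted p = 0.118) and did not pass. Cd40lg, like Sh2d1a, lies on the X chromosome.

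Pdcd1 encodes PD-1, an inhibitory receptor that T follicular helper cells carry at high density and other activated T cells also express. It measured 6.96, 6.64 and 7.71 in Sle1.3/E2-2het mice, set against 8.23, 8.11 and 8.31 in Sle1.3 mice. All 3 Sle1.3/E2-2het mice were below all 3 Sle1.3 mice, with the second-set mouse again nearest to them. The difference was -1.11 (SE 0.16, limma adjusted p = 0.0115), a 2.16-fold lower level. It was -1.01 (adjusted p = 0.0661) without Sle1.3 replicate 1.

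Icos encodes the costimulatory receptor that maintains the T follicular helper state, and regulatory and other activated T cells express it as well. It measured 9.50, 9.72 and 10.13 in Sle1.3/E2-2het mice, while Sle1.3 mice had 9.87, 9.96 and 9.83. The groups overlapped, since the second-set Sle1.3/E2-2het mouse had a higher value than any Sle1.3 mouse. The difference was -0.11 (SE 0.14, limma adjusted p = 0.851), and its sign turned without Sle1.3/E2-2het replicate 1 (0.016) and after scaling to T cell genes (0.10).

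Sh2d1a measured 5.44, 5.65 and 6.10 in Sle1.3/E2-2het mice, set against 6.15, 6.57 and 6.02 in Sle1.3 mice. The groups overlapped through their second-set mice. The difference was -0.52 (SE 0.21, limma adjusted p = 0.391) and did not pass.

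Tox and Tox2 encode related high-mobility-group factors that promote T follicular helper development, and Tox is also transcribed in natural killer and CD8 T cells. Tox measured 7.16, 7.20 and 8.11 in Sle1.3/E2-2het mice, while Sle1.3 mice had 8.35, 8.33 and 8.66. Its groups did not overlap, and the difference was -0.96 (SE 0.14, limma adjusted p = 0.0115). Tox2 measured 6.21, 6.48 and 6.99 in Sle1.3/E2-2het mice, set against 7.43, 7.12 and 7.49 in Sle1.3 mice. Its groups lay close but apart, and the difference of -0.79 (SE 0.15, limma adjusted p = 0.0469) sat near the threshold.

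Maf encodes c-Maf, a factor that promotes Il21 transcription and that macrophages also express. It measured 7.45, 7.30 and 8.21 in Sle1.3/E2-2het mice, while Sle1.3 mice had 8.11, 7.95 and 8.60. The groups overlapped across array sets, while in the first set both Sle1.3/E2-2het mice lay below both Sle1.3 mice. The second set has 1 mouse of each genotype and so cannot show overlap. The difference was -0.56 (SE 0.13, limma adjusted p = 0.0811), and it passed with the replicate number as a block (adjusted p = 0.0309).

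Ascl2 encodes a basic helix-loop-helix factor that raises CXCR5 in T cells and also marks intestinal stem cells. It measured 4.74, 4.97 and 5.11 in Sle1.3/E2-2het mice, set against 4.92, 4.91 and 5.28 in Sle1.3 mice, with overlapping groups. With no filter the difference was -0.09 (SE 0.11, limma adjusted p = 0.853).

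In all, 6 of the 10 genes (Pdcd1, Il21, Tox, Tox2, Tnfsf8 and Cd40lg) had every Sle1.3/E2-2het value below every Sle1.3 value. Among all 19938 genes 3.34% did so. The 4 calls depended on the terms in the fit. Genotype alone called 0 of the 8 members and 2 genes in all. Labelled sex in place of the array set called 0 members and 0 genes in limma. With both the array set and the sex read from Xist as terms, the comparison rests on 1 pair of second-set mice. Its differences were then -0.98 for Tnfsf8, -0.61 for Pdcd1, -0.55 for Tox and -0.50 for Tox2. With the replicate block 5 members fell (1.2% of all genes were lower), and in the first set alone Tnfsf8, Pdcd1 and Tox did (0.388% of all genes). Without Sle1.3 replicate 1 only Tnfsf8 remained among the members, and without Sle1.3/E2-2het replicate 2 Tnfsf8 and Pdcd1 did.

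**Figure D2:**
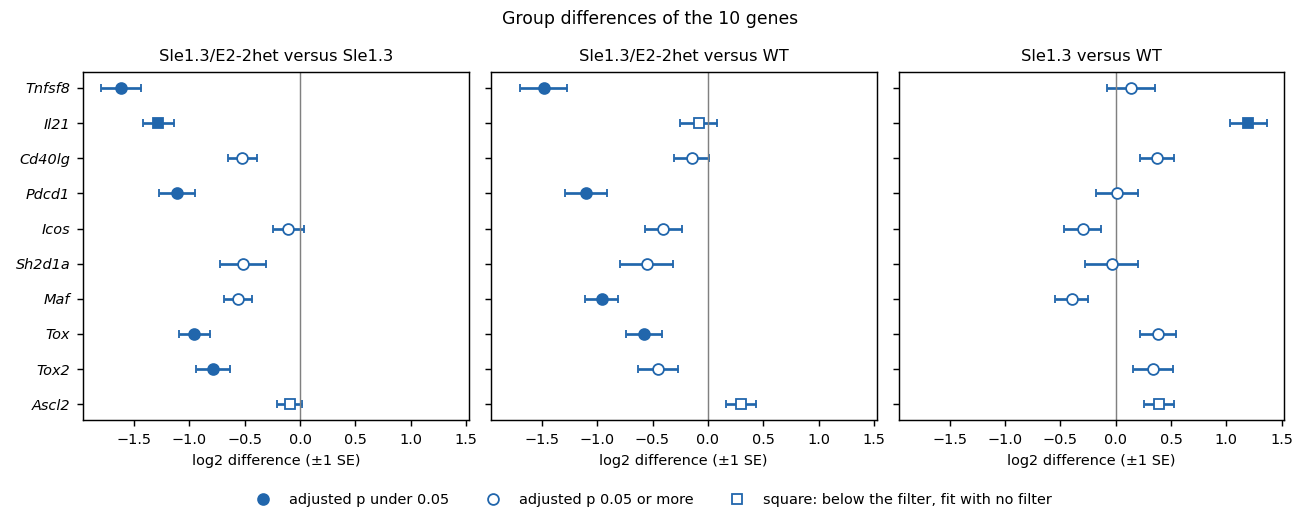
Log2 difference of each gene (x axis, with 1 standard error to each side) in Sle1.3/E2-2het versus Sle1.3, Sle1.3/E2-2het versus WT and Sle1.3 versus WT, from the fits with the array set. Filled symbols passed the test, and squares mark Il21 and Ascl2, which were fitted with no filter. Tnfsf8 lies near -1.62 and -1.48 in the panels with Sle1.3/E2-2het mice and at 0.14 in Sle1.3 versus WT.

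The difference was smaller between the second-set mice than in the first set for 9 of the 10 genes. That count was not made over all genes, so no share stands beside it. Of all 14953 genes tested, 7819 were lower in Sle1.3/E2-2het than in Sle1.3 in the first set. In the first set, 2 mice against 2, all 10 genes were lower in Sle1.3/E2-2het, with differences of -1.94 for Tnfsf8, -1.44 for Il21, -1.36 for Pdcd1, -1.16 for Tox and -0.93 for Tox2. In the second set, 1 mouse against 1, the values were -0.98 for Tnfsf8, -0.95 for Il21, -0.61 for Pdcd1, -0.55 for Tox and -0.50 for Tox2. Icos (0.30) and Sh2d1a (0.08) pointed the other way there. The second-set mice are both female by Xist, and the first-set mice are male in Sle1.3/E2-2het and female in Sle1.3, so the second-set values are those between mice of 1 sex. A test of the difference between the sets passed for 0 of 8 members in limma (adjusted p = 0.997 for each), with 5 of 8 at an unadjusted p under 0.05, as were 2.45% of all genes. The part of sex and of the array set in the smaller second-set difference was not tested.

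**Figure D3:**
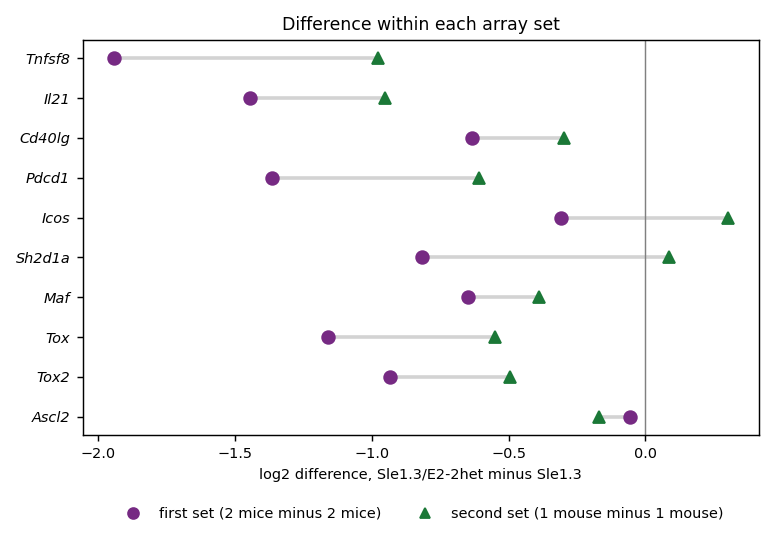
Log2 difference of Sle1.3/E2-2het minus Sle1.3 (x axis) for each gene within the first array set (circles, 2 mice minus 2 mice) and the second (triangles, 1 mouse minus 1 mouse). For Tnfsf8 the values are -1.94 and -0.98, and for Icos they are -0.31 and 0.30.

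Other genes listed for T follicular helper cells fell beside these. Of 21 tested surface, cytokine and other genes of this list 6 fell and none rose, with a median difference of -0.25, where 0.461% of all genes fell. The list was not divided by whether a gene is high or low in these cells. Sostdc1, a secreted BMP and Wnt antagonist found in T follicular helper cells, measured 5.67, 5.72 and 6.98 in Sle1.3/E2-2het mice, while Sle1.3 mice had 8.25, 7.76 and 8.35 (-1.996, SE 0.22, limma adjusted p = 0.00279). Gpm6b, a membrane proteolipid, fell by 1.21 (adjusted p = 0.00313), Rgs16, an intracellular G protein regulator, by 1.03 (adjusted p = 0.00547), and Hif1a, a nuclear hypoxia factor, by 0.83 (adjusted p = 0.0115) in limma. Cxcr5, the follicular homing receptor that B cells also carry, differed by -0.15 (adjusted p = 0.764) and was chosen after its values were seen. After T cell scaling 3 of the 21 fell, as did 32 of all 14953 genes tested.

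Of 12 regulators listed as promoting the T follicular helper state 1 fell, the zinc-finger factor gene Egr2 (-0.66, SE 0.13, limma adjusted p = 0.0469). That list holds Id3 (0.12), an inhibitor of E proteins, beside the E protein genes Tcf3 and Tcf12. Its counts thus mix factors of opposed action. None of 12 regulators listed as opposing the T follicular helper state passed. The smallest p among these were those of Gata3 (-0.65, limma adjusted p = 0.173) and Prdm1 (-0.47, adjusted p = 0.264). None of 12 ligands, receptors and signalling partners of the 10 genes passed. Slamf1, a SAP-binding receptor (-0.64, adjusted p = 0.0780), and Pdcd1lg2, which encodes a ligand of PD-1 (-0.55, adjusted p = 0.0822), came nearest. The replicate block called 2 of the 12 partners and 2 of the 12 promoting regulators, and the first set alone called none of either, Egr2 included.

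General T cell markers were mostly lower too, without passing the test. None of 11 passed (2 fell with the replicate block), 8 had negative and 3 positive differences, and the median was -0.25. In the first set alone the median was -0.51, with 10 of 11 negative and none passing. Zap70, named after its values were seen, had the largest difference (-0.93, SE 0.26, limma adjusted p = 0.153). Their mean log2 level was 7.95 to 8.85 in Sle1.3/E2-2het mice and 8.46 to 8.67 in Sle1.3 mice, lowest in the first-set Sle1.3/E2-2het mice. Cd4 differed by -0.75 (SE 0.18, limma adjusted p = 0.0994), and the 2 CD8 chain genes and the 4 naive T cell genes had positive differences with medians of 0.42 and 0.40, none of which passed. With every array scaled to its T cell genes, Tnfsf8 (-1.41) and Pdcd1 (-0.90, limma adjusted p = 0.0126) were still lower. Tox (-0.75, adjusted p = 0.102) and Tox2 (-0.58, adjusted p = 0.438) did not pass. In that fit limma used 1 spread for all genes (SE 0.23 for Pdcd1 and Icos alike), so its p values do not measure a gene's own spread. That scaling moved the median of all genes to 0.21 and turned the split of calls to 122 higher and 32 lower genes, against 23 higher and 69 lower without it.

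Germinal centre B cell markers, the partners of these T cells, were lower in the same mice. Their mean level was 5.90 to 6.41 in Sle1.3/E2-2het mice and 6.73 to 7.35 in Sle1.3 mice, and 4 of 6 tested genes fell: Mybl1 (-2.02), Gcsam (-1.65), Rgs13 (-1.58) and Nuggc (-0.62), named after their values were seen. In the first set alone 2 of the 6 fell. Among regulatory T cell markers 1 of 4 fell, the factor gene Ikzf2 (-0.66, limma adjusted p = 0.0424), while Foxp3 differed by -0.17. Red pulp macrophage markers had positive differences in 6 of 9 cases, and Slc40a1 (1.22) and Vcam1 (1.09) rose. All 5 erythroid markers tested had positive differences, and 2 rose. All 7 natural killer cell markers tested had positive differences too, with a median of 0.63. None of them passed, though 4 rose with the replicate block. Their mean level was 6.70 to 7.40 in Sle1.3/E2-2het mice and 6.35 to 6.56 in Sle1.3 mice. The part of these cell types in the differences of the 10 genes was not tested.

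**Figure D4:**
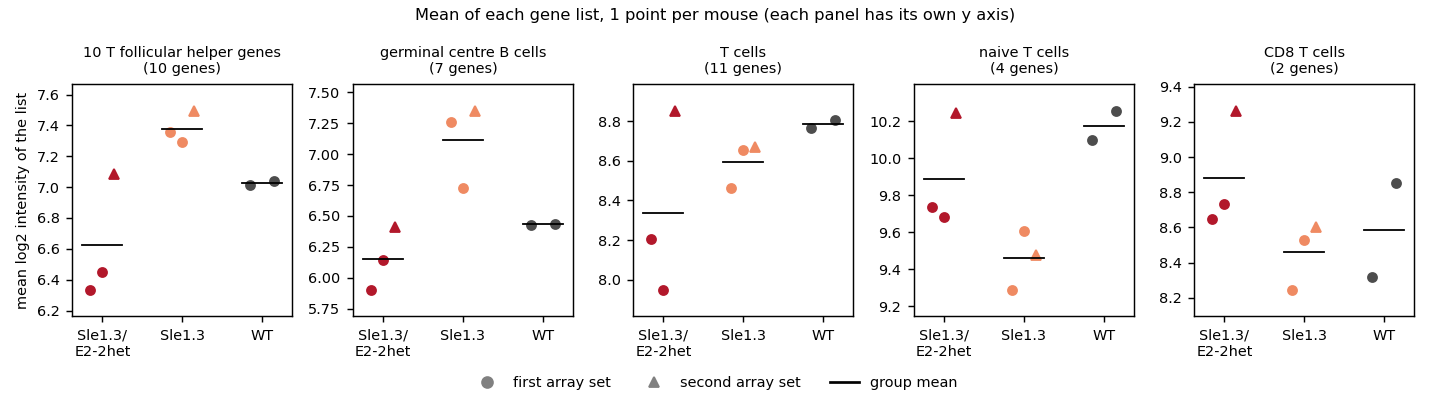
Mean log2 intensity (y axis, a scale of its own per panel) of the 10 genes and of markers of germinal centre B cells, T cells, naive T cells and CD8 T cells in each mouse by genotype (x axis), with circles for the first array set, triangles for the second and bars for group means. The 10 genes averaged 6.34 to 7.09 in Sle1.3/E2-2het mice and 7.29 to 7.49 in Sle1.3 mice, without overlap.

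The promoters of the members with the largest differences are shown because E2-2 binds E-boxes. RefSeq's table (GRCm38.p6) held a start site for 5 of the 10 genes: Pdcd1, Il21, Tox2, Tnfsf8 and Ascl2. The 250 bases before the start site are printed 5′ to 3′ on the gene's strand, with capitals marking the E-box CANNTG, which reads the same on both strands. Il21 lies on the minus strand at chr3:37232637-37232886, Tnfsf8 on the minus strand at chr4:63861285-63861534 and Pdcd1 on the minus strand at chr1:94052554-94052803. The annotated Tnfsf8 gene spans chr4:63831202-63861508, so most of its window lies inside the gene and not before it.
Il21: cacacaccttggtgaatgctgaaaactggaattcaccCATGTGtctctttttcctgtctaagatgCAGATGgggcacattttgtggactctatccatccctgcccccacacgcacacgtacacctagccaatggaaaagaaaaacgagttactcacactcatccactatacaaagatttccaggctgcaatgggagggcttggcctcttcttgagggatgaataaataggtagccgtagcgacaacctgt
Tnfsf8: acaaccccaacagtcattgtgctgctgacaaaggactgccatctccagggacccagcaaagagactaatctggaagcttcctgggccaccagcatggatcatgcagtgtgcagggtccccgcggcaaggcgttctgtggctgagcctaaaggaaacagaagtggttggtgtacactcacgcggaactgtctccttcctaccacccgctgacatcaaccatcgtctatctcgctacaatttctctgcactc
Pdcd1: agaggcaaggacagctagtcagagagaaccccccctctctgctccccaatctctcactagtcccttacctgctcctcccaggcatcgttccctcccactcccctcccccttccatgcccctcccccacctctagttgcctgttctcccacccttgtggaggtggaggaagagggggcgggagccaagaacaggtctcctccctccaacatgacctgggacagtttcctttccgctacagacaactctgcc
Il21 held 2 E-boxes, starting at -213 and -185 from the start site, and Tnfsf8 and Pdcd1 held none in these windows. For Tnfsf8 this says little of the bases before the annotated gene. Ascl2 held 2, and the 5 listed start sites of Tox2, whose windows also overlap its annotated gene, held 0 or 1 each. Among 32851 such windows of all listed genes 66.2% held at least 1. The stricter form CAGGTG or CACCTG was found in Ascl2 and at 1 Tox2 start site, and in 17.2% of all windows. A match is a description of letters and not of binding.

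Set against WT, Sle1.3/E2-2het spleens also had lower levels of several of these genes. Tnfsf8, Pdcd1, Maf and Tox fell, 4 of the 8 tested, while 23.4% of all genes were lower and 10.7% higher in this comparison (34.1% in all). The comparison shares its Sle1.3/E2-2het mice with the one above, so it is no separate evidence. Tnfsf8 was 7.55 and 7.79 in WT mice, above all 3 Sle1.3/E2-2het mice, and differed by -1.48 (SE 0.21, limma adjusted p = 0.00105). Pdcd1 was 8.03 in both WT mice and differed by -1.10 (SE 0.19, adjusted p = 0.00236).

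Maf was 8.51 and 8.26 in WT mice, above all 3 Sle1.3/E2-2het mice, and differed by -0.96 (SE 0.15, limma adjusted p = 0.00154). Tox was 7.83 and 7.89 in WT mice, within the range of the Sle1.3/E2-2het mice, and differed by -0.58 (SE 0.16, adjusted p = 0.0186). Tox2, Sh2d1a and Icos differed by -0.45, -0.55 and -0.40 and did not pass, though Sh2d1a did under the replicate block (limma adjusted p = 0.0398, with 27.4% of all genes lower). In the first set alone 7 of 8 members were called as lower (23.4% of all genes), all but Cd40lg. Cd40lg (-0.15) and Il21 (-0.08) were near WT, and Ascl2 was 0.30 higher without passing. Values of 3 genes were below WT in every Sle1.3/E2-2het mouse and of 1 above, against 17.6% and 36.2% of all genes.

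Genes of the wider lists were lower than in WT on the values as deposited, where 23.4% of all genes were. Of the partners 7 of 12 fell, and of the regulators 8 of 12 promoting and 8 of 12 opposing. Of the surface, cytokine and other genes 9 of 21 fell, and of the T cell markers 7 of 11. None in these lists rose. The genes that fell included the ICOS ligand gene Icosl (-1.14), the SAP-recruited kinase gene Fyn (-1.26), the inhibitory receptor gene Tigit (-1.23) and the OX40 gene Tnfrsf4 (-1.23). Among the 8 counted as promoting regulators was Id3 (-1.04), an inhibitor of E proteins. After T cell scaling 1 partner rose and 1 fell, 0 promoting and 1 opposing regulators fell, 1 of the 21 rose and 3 fell, and 0 T cell markers passed in limma. In the same mice 8 of 9 red pulp macrophage and 4 of 5 erythroid markers rose, beside 10.7% of all genes, and their part in these differences was not tested. With that scaling only Tnfsf8 (-0.90, limma adjusted p = 0.00505) passed among the members, in a fit with 1 spread for all genes. That scaling moved the median of all genes to 0.49 and gave 5781 higher and 95 lower genes, quantile normalization 1062 and 996, median centring 1123 and 4429, and the values as deposited 1599 and 3493. Quantile normalization called Tnfsf8, Pdcd1 and Maf.

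Between Sle1.3 and WT spleens Il21 had the largest difference of the 10 genes, though it was fitted only with the array set as a term. Every Sle1.3 mouse lay above both WT mice, and with no filter the difference was 1.20 (SE 0.17, limma adjusted p = 0.00166), where 9.52% of all genes passed as higher. None of the 8 genes above the filter passed, while 7.46% of all genes were higher and 16.5% lower (24.0% in all), and 3 of the 8 had an unadjusted p under 0.05, as did 38.0% of all genes. Their differences ran from -0.40 for Maf to 0.38 for Tox, with a median of 0.08 against -0.06 over all genes.

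Tox (0.38, SE 0.16, limma adjusted p = 0.108), Cd40lg (0.37, SE 0.16, adjusted p = 0.102), Tox2 (0.34, adjusted p = 0.190) and Ascl2 (0.39, adjusted p = 0.0566) had higher mean levels in Sle1.3 without passing. In 7 of the 10 genes every Sle1.3 value was above both WT values, and in Icos every value was below, against 30.2% and 18.5% of all genes. Pdcd1 (0.01) and Tnfsf8 (0.14) had small differences whose sign depended on the fit. Tox passed in the first set alone (0.48, adjusted p = 0.0460, where 5.16% of all genes were higher) and after quantile normalization (0.65, adjusted p = 0.0162). Maf was lower with the replicate block (-0.40, adjusted p = 0.0449, where 20.3% of all genes were lower).

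On the values as deposited, 16.5% of all genes were lower in Sle1.3 than in WT and 7.46% higher. Among the partners of the 10 genes 4 of 12 fell and Slamf6, a SAP-binding receptor gene, rose (0.55). Of the regulators 6 of 12 promoting and 7 of 12 opposing fell. Of the surface, cytokine and other genes 4 of 21 fell and 1 rose, near the shares of all genes. After T cell scaling 1 partner rose and 1 fell, 1 promoting and 0 opposing regulators fell in limma, and 4 of the 21 rose and 0 fell. The receptor gene of interleukin-21, Il21r, measured 9.16, 9.39 and 9.20 in Sle1.3 mice, against 10.38 and 10.29 in WT mice (-1.16, SE 0.17, limma adjusted p = 0.00147). Id3, an inhibitor of E proteins counted among the promoting regulators, differed by -1.16 (limma adjusted p = 0.000883), and Gpm6b rose by 0.62 (adjusted p = 0.0181). Germinal centre markers rose in 3 of 6 cases and red pulp macrophage markers in 5 of 9, beside 7.46% of all genes. Naive T cell markers fell in 3 of 4 cases and T cell markers in 2 of 11, the latter near the 16.5% of all genes. Against the deposited values' split of 1115 higher and 2470 lower genes, quantile normalization gave 957 and 892 and T cell scaling 1755 and 163.

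Over the 3 genotypes the 10 genes fall into different orders. Il21 was highest in Sle1.3, with Sle1.3/E2-2het and WT not separated by the test. Tnfsf8 and Pdcd1 were lowest in Sle1.3/E2-2het, with Sle1.3 and WT not separated. The same order held for Tox by the test. Both WT values of Tox, however, lay below every Sle1.3 value and within the range of the Sle1.3/E2-2het mice. Tox2 was lower in Sle1.3/E2-2het than in Sle1.3, and Maf was lower there than in WT. Cd40lg, Icos, Sh2d1a and Ascl2 showed no called difference in any pair of genotypes in the fits that gave the tests above, on the values as deposited from all 8 arrays with the array set as a term. Under other settings Icos and Sh2d1a were called as lower in Sle1.3/E2-2het than in WT. Cd40lg was called as higher in Sle1.3 than in WT after T cell scaling (0.74, limma adjusted p = 0.0492), in a fit with 1 spread for all genes.

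The genes outside the 10 whose centred profile over the 8 arrays came nearest to each member were found by the root mean square difference in log2 units. For Pdcd1 they were Rgs16 (0.13) and Eea1 (0.15), and for Tnfsf8 Rgs16 (0.32) and Il10 (0.33). For Tox they were Ctla4 (0.11) and Gpm6b (0.13), and for Tox2 Ada and Gnaz (0.12 each). For Il21 they were Lman1 (0.21) and Pon3 (0.22), for Maf Rftn1 (0.11) and Anxa7 (0.13), and for Sh2d1a Selenos (0.11) and Ppp2r5e (0.13). Icos lay nearest to Rab5a and Banf1 (0.07 each), Cd40lg to Hpf1 and Ift22 (0.09 each) and Ascl2 to Fbn2 (0.05) and Gm10510 (0.06). The 8 arrays share 2 array sets and 3 genotypes, so these distances describe these arrays.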

How the data were processed

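Splenocyte RNA of 8 mice was measured on 8 arrays. The values for 35556 probe sets, as deposited, are intensities on a linear scale. The submitters' processing notes name RMA and Affymetrix Expression Console. Versions, roles and background correction are not given in the sources used here. They were taken to log2 and otherwise used as they stand, although array quantiles differed. Samples are numbered within a genotype, and p values measure the spread between these samples. After T cell scaling limma used 1 pooled spread for all genes, so p values there do not measure a gene's own spread. The number of arrays limits the precision. Of the probe sets 21789 carried 1 gene symbol in the platform annotation, 1621 several and 12146 none listed. The brightest single-symbol probe set stood for each of 19938 genes. The 14953 genes whose mean log2 lay above the 25th percentile (5.01) were tested, 8 of the 10 members among them. Il21 and Ascl2 were read from the fit with no filter.

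Tests used limma (version 3.58.1, two-sided lmFit and eBayes fits, R version 4.3.3) over all 8 arrays, with genotype and array set as terms. The array set holds the arrays whose lowest intensity exceeds 1.5 times the median of the 8. Adjusted p values are Benjamini and Hochberg's over all genes tested, at a threshold of 0.05. The fit was tested on simulated data. Labelled sex was left out because the sex-linked genes of 1 array go against it. The members, lists, tests and array set were chosen with earlier results of these data known. All 10 members are reported. From each list up to 4 genes that passed with the smallest p are named, or 2 where none passed.

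Mice of the Sle1.3/E2-2het group and those of the Sle1.3 group with the same number deviated alike from their group means, with correlations across genes of 0.573, 0.369 and 0.618, so a fit with that number as a block accompanies the one above. The labels do not say what a shared number means. The last of these pairs is also the second array set. Over replicates 1 and 2 alone the correlation was 0.358 for these groups, 0.202 for Sle1.3/E2-2het and WT, and 0.0963 for Sle1.3 and WT. Alternatives changed the array-set term, the normalization, the filter, the probe set, the variance prior and the mice used. The fit with array set and sex by the sex-linked genes was chosen after seeing the data.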

Additional observations from a re-analysis of the deposited data

How the results depend on the processing

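The calls among the 10 genes depended on the terms in the fit, on the scaling and on the mice used. Of the 8 genes tested, 4 were called in Sle1.3/E2-2het versus Sle1.3, against 0 with no array set term, 0 with labelled sex in its place, 0 with array set and sex by the sex-linked genes, and 2 after scaling to T cell genes. Over all genes those fits called 2, 0, 1 and 154 genes and the replicate block 262, against 92. In Sle1.3/E2-2het versus WT 4 were called, against 1 with no array set term, 1 with labelled sex, 1 after T cell scaling, and 7 in the first set alone. The fit with array set and sex is the same fit as the first set alone for Sle1.3/E2-2het versus WT. All genes called there were 5092, against 1076 with no array set term, 492 with labelled sex and 2058 after quantile normalization. In Sle1.3 versus WT 0 were called, against 1 each with the replicate block, the first set, quantile normalization, median centring, no filter and the mean of probe sets, and 2 after T cell scaling. With no filter and with the mean of probe sets, the gene called in Sle1.3 versus WT was Il21, which is outside the 8. All genes called there were 3585, against 879 with no array set term, 199 with labelled sex, 2367 in the first set, 1849 after quantile normalization, 1918 after T cell scaling and 456 with array set and sex. Leaving out 1 mouse gave 1 to 4 members and 26 to 165 genes in Sle1.3/E2-2het versus Sle1.3, 3 to 7 and 1634 to 5214 in Sle1.3/E2-2het versus WT, and 0 to 1 and 1107 to 3649 in Sle1.3 versus WT. The causes were not tested.

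Tnfsf8 in Sle1.3/E2-2het versus Sle1.3 was called in 14 of 17 distinct alternative fits, Pdcd1 in 13, Tox in 11 and Tox2 in 5, and all 4 were negative in all 17. For this comparison the first set alone and leaving out either second-set mouse are 1 fit, as is leaving out either WT mouse. Signs turned elsewhere. In Sle1.3/E2-2het versus Sle1.3, Icos became 0.10 after T cell scaling, 0.30 with array set and sex and 0.016 without Sle1.3/E2-2het replicate 1 (-0.31 at the other end, without Sle1.3 replicate 3), while Sh2d1a became 0.085 and Tcf4 0.19 with array set and sex. In Sle1.3/E2-2het versus WT, T cell scaling gave 0.18 for Icos, 0.027 for Sh2d1a, 0.0018 for Tox, 0.13 for Tox2 and 0.43 for Cd40lg. In Sle1.3 versus WT, Pdcd1 became -0.065 with labelled sex, -0.045 after median centring and -0.62 with array set and sex, and -0.12 and -0.034 without Sle1.3 replicates 1 and 2 (0.14 at the other end, without Sle1.3 replicate 3). Icos became 0.071 after T cell scaling. Sh2d1a became 0.11 in the first set and without either second-set mouse, 0.011 after quantile normalization, 0.33 after T cell scaling, 0.25 without WT replicate 2 (-0.32 without WT replicate 1) and 0.0023 without Sle1.3 replicate 1. Tox became -0.13 and Tox2 -0.025 with array set and sex, and Tnfsf8 -0.033 with labelled sex and -0.67 with array set and sex. None of these values passed the test. With array set and sex, Sle1.3/E2-2het versus Sle1.3 rests on 1 pair of second-set mice. Whether the low signals of Il21 and Ascl2 lay above background could not be checked, since no detection call came with the table.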
